A study of Mus musculus with 16 samples.

Results

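The genes described here are 34 chemokine ligands of the mouse, 15 of the CXC family, 17 of the CC family, Cx3cl1 and Xcl1. They were chosen by name, with earlier results of these data known, and matched by symbol to the 54453 genes of an RNA-sequencing table. Total RNA was measured in 16 immortalised mouse embryonic fibroblast (MEF) lines, with 1 library per line. The parental line MEF-1 came from a male and the parental line MEF-2 from a female C57BL/6J embryo of the same litter, taken at E13.5, and 7 clonal lines were grown from single sorted cells of each. None of the lines was treated or carried a modified allele, all had been immortalised by passaging through crisis, and all were grown to about the same confluency. Each set of lines goes back to 1 embryo and 1 immortalisation, so that embryo, sex, immortalisation and later changes of the karyotype cannot be told apart in any comparison between MEF-1 and MEF-2, and p-values measure only the spread between clonal lines. Chromosomes 12, 18 and 19 are known to be aneuploid in some of these lines, and none of the chemokine genes lies on them.

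Chemokines are small secreted proteins that bind receptors with 7 membrane passes and guide the movement of cells, above all leukocytes. They are named after the spacing of their first cysteines (CXC, CC, CX3C and C), and many of the inflammatory members lie side by side in gene clusters. Fibroblasts are known as a constant source of Cxcl12, and they release neutrophil- and monocyte-attracting chemokines such as Cxcl1 and Ccl2 when IL-1 or TNF activates the transcription factor NF-kB. Cxcl9, Cxcl10 and Cxcl11 are known instead as genes that respond to interferon.

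The sequences upstream of 4 CXC genes are shown because these genes share a run of letters known from NF-kB sites and lie on the chromosome that held most of the CXC genes. They were taken from RefSeq promoter windows on GRCm38.p6 (mm10), in which 24 of the 34 genes had an entry, and they end before the first base of the gene in both RefSeq and GENCODE. The bases in capitals are matches to GGGA and TTCC with 2 bases of any kind between them, on either strand, which run to 11 bases where the matches of both strands overlap. In Cxcl10, the first run in capitals is a match to GAAA, 2 bases of any kind and GAAA, letters known from interferon-response elements. The windows printed are chr5:90891125-90891240, plus strand, for Cxcl1, chr5:90903779-90903870, plus strand, for Cxcl2, chr5:90785981-90786100, plus strand, for Cxcl3, and chr5:92348890-92349139, minus strand, for Cxcl10.
Cxcl1: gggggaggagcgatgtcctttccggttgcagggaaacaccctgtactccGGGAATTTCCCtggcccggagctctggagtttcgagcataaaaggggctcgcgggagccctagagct
Cxcl2: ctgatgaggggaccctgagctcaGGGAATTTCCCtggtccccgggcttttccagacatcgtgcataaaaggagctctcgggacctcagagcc
Cxcl3: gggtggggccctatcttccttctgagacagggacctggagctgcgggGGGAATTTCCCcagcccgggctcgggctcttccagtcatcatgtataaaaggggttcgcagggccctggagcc
Cxcl10: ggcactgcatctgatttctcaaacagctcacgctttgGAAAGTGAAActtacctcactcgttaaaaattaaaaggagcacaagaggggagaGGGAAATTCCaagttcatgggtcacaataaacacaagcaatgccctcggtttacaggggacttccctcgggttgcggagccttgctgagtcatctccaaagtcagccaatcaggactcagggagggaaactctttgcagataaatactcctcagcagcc

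The NF-kB letters were found within 250 bases upstream of the RefSeq start in 5 of the 24 genes, namely these 4 and Ccl1, and in 1.208% of all 32851 promoter windows of that length. Cxcl5, Cxcl11, Cxcl16, Cxcl17, Ccl2, Ccl4, Ccl5, Ccl7, Ccl11 and Ccl24 had no entry and were not searched for any of these letters. Counted from the RefSeq start, the run lay 71 to 61 bases upstream in Cxcl1, 73 to 63 in Cxcl3, 97 to 87 in Cxcl2 and 159 to 150 in Cxcl10. The interferon-response letters were present in Cxcl10 and Cxcl14 (2.977% of all windows). The letters TGANTCA, known from AP-1 sites, were present in Cxcl10, Ppbp and Ccl9 (6.749%), and TATAAA was present in 10 of the 24 genes (12.368%), both searched on either strand. A match describes the sequence and does not show that a factor binds there. Only the letters given were searched, so that sites of other forms may lie unmarked in these windows.

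The values are regularised log (rlog) values on the log2 scale, and a difference of 1 stands for a 2-fold change before shrinkage. Deviations from the mean of a gene are shrunken by the transformation, so that differences understate the change, most of all for genes with few reads, and a line without reads takes a value that depends on the gene. Read depth per line is unknown, and no other quality measure per line was used here. The labelled cell type could be checked from its markers, of which the fibroblast genes Col1a1, Col1a2, Fn1 and Vim averaged 20.88, 19.92, 20.82 and 18.20. Col3a1, Pdgfrb and Pdgfra averaged 18.96, 14.62 and 13.86, and Dcn, Lum and Thy1 only 8.47, 8.40 and 4.74. Of 10 fibroblast markers, limma called 4 as higher (Dcn by 4.74, Lum by 3.68, Pdgfra by 1.85 and Col3a1 by 0.60) and 1 as lower (Thy1 by −2.59) in MEF-1 than in MEF-2. Over all genes tested, 28.6% were called higher and 27.5% lower. Col1a2 (−0.34) was also called lower by an exact permutation test, without the trended variance prior, and with an average above 5 required. The log2 of the summed level of the 10 fibroblast markers ran from 22.24 to 22.72 in MEF-1 and from 22.05 to 22.76 in MEF-2. Among 10 leukocyte markers, Tyrobp was listed at 0 in all lines and Cd3e, Adgre1 and Aif1 averaged below 0, whereas Ptprc, the pan-leukocyte gene, ran from 1.56 to 2.94 in the clonal lines. Cd14, a lipopolysaccharide co-receptor of monocytes, was the highest of the list at an average of 7.83, from 7.02 to 8.49 in the clonal lines. Their summed level ran from 7.72 to 8.86 in MEF-1 and from 8.10 to 9.41 in MEF-2, with Lyz2 higher in MEF-1 by 2.80 and Csf1r lower by −1.36. The summed level of 5 endothelial markers ran from 5.03 to 6.38 in MEF-1 and from 5.06 to 6.84 in MEF-2 (Kdr higher by 0.89), and that of 5 epithelial markers from 7.00 to 8.54 and from 6.76 to 8.44 (Cldn7 higher by 0.48). The highest epithelial marker was Cdh1, at an average of 7.44. The part of these marker genes in the differences of chemokines was not tested. In these bulk samples, fewer cells that make a chemokine and less RNA per cell cannot be told apart.

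Of the 34 genes, 22 averaged above 0 over the 16 lines and could be tested, 12 of the CXC and 9 of the CC family and Cx3cl1. Listed at exactly 0 in every line were Ccl1, Ccl8, Ccl11 and Ccl12, all from the cluster around Ccl2 on chromosome 11. Another 8 averaged below 0, which were Xcl1, the interferon-responsive Cxcl9 and Cxcl11, the B-cell chemokine Cxcl13, the macrophage inflammatory proteins Ccl3 and Ccl4, Ccl6 and Ccl22. Over all lines these 8 stayed between −2.29 and −0.19, with Ccl6 the highest at −0.59 to −0.19.

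Levels can be compared between genes after subtracting the log2 of transcript length in kilobases, and on this scale Cxcl12 was highest, at an average of 14.39. Cxcl12, the ligand of Cxcr4 that retains stem cells and B-cell precursors in the bone marrow, was followed by Ppbp at 12.57, Cxcl1 at 10.27 and Cx3cl1 at 10.24, still per kilobase. Ppbp encodes the platelet precursor of the neutrophil chemokine NAP-2, and Cx3cl1 encodes fractalkine, which is held in the membrane by a mucin stalk until it is shed. Ccl25 (9.12 per kilobase), known from thymus and gut, and Cxcl15 (9.03), first known from lung epithelium, came next, ahead of the monocyte chemokines Ccl7 (7.25) and Ccl2 (6.81). The order changed with the set, as Cxcl1 per kilobase averaged 11.78 in MEF-1 against 10.16 for Cx3cl1, and 9.21 in MEF-2 against 10.31.

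The comparison of 7 MEF-1 with 7 MEF-2 clonal lines asks how far chemokine levels differ between lines from sibling embryos. Of the 22 genes tested, 15 (68.2%) were higher in MEF-1, 0 were lower and 7 did not pass (limma, Benjamini-Hochberg adjusted over 15285 genes). The background was high, since 56.1% of all genes tested were called, 28.6% as higher and 27.5% as lower in MEF-1. With no gene called lower, 1 had an unadjusted p under 0.05 in that direction by limma and 0 by an exact permutation test, which also called 15 genes higher. Counted over all 34 genes, the share called higher was 44.1%. The median difference of the tested chemokines was 1.12, against 0.00 for all genes tested, and 20 of the 22 differences were above 0. All 7 MEF-1 lines lay above all 7 MEF-2 lines for 9 chemokines (13.6% of all genes tested) and none showed the reverse (12.3%). A count over the tested genes leans towards genes that are high in 1 set, since a gene low in both did not enter the fit. The chemokines were also chosen with earlier results of these data known, so that their shares against all genes are a description.

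**Figure D1:**
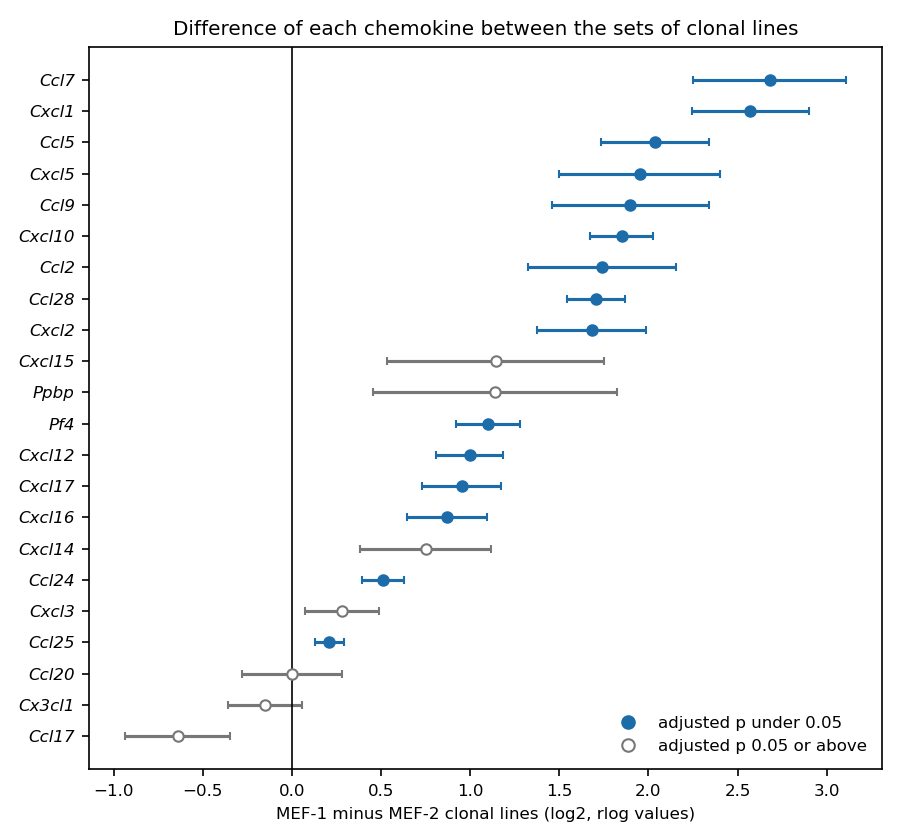
Difference between MEF-1 and MEF-2 clonal lines of the 22 tested chemokines (x axis, log2 difference of rlog values; points, estimate; bars, SE from limma with 7 lines per set), with filled points for an adjusted p under 0.05. The 15 filled points all lie to the right of 0, from Ccl25 at 0.21 to Ccl7 at 2.68, and Ccl17 at −0.64 is the lowest.

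The neutrophil-attracting CXC chemokines, which act on Cxcr2, lie together on chromosome 5 and included 3 genes that were higher in MEF-1. Cxcl1 (ENSMUSG00000029380, mm10, chromosome 5, 90891241 to 90893115, plus strand), a chemokine of the early neutrophil response, ran from 10.36 to 12.62 with a median of 11.93 in the MEF-1 clonal lines, and from 8.31 to 9.98 with a median of 9.32 in the MEF-2 clonal lines. The lowest MEF-1 line, line 4, was still above the highest MEF-2 line, line 3. The difference was 2.57 ± 0.33 (SE, n = 7 per set, limma adjusted p = 1.13e-05).

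Cxcl5 (chromosome 5, 90759360 to 90761624, plus strand), which in the mouse is often made by epithelial cells, ran from 4.80 to 7.84 (median 5.95) in MEF-1 and from 3.07 to 4.77 (median 4.18) in MEF-2. The sets did not overlap, but MEF-1 lines 1, 2 and 4, all near 4.80, came within 0.1 of the highest MEF-2 line, and MEF-1 line 7 stood highest. The difference was 1.95 ± 0.45 (SE, n = 7 per set, limma adjusted p = 0.00194). Cxcl2 (chromosome 5, 90903871 to 90905938, plus strand), a neutrophil chemokine that macrophages release early, ran from 2.01 to 4.54 (median 3.60) in MEF-1 and only from 1.58 to 1.85 (median 1.66) in MEF-2. In MEF-2, 5 of the 7 lines lay within 0.1 of the lowest value of the gene, so that these lines may hold no reads of it. The difference was 1.68 ± 0.31 (SE, n = 7 per set, limma adjusted p = 0.000313).

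Its close relative Cxcl3, with which Cxcl2 shares 7.59% of its 31-base words, averaged only 0.14, and its difference of 0.28 ± 0.21 (SE, adjusted p = 0.259) did not pass the limma test. In MEF-1, Cxcl3 stood at 1.57 in line 7 and between −0.07 and 0.33 in the other 6 lines. Ppbp (chromosome 5, 90768518 to 90770063, plus strand), between Cxcl5 and Pf4, ran from 10.72 to 15.54 (median 14.22) in MEF-1 and from 10.97 to 13.59 (median 12.21) in MEF-2. The sets overlapped, with MEF-1 lines 1 and 4 among the lowest of all and MEF-1 lines 3, 5, 6 and 7 above every MEF-2 line. The difference of 1.14 ± 0.68 (SE, n = 7 per set, adjusted p = 0.17) did not pass the limma test, but it did without MEF-1 line 1, at 1.59 (adjusted p = 0.035).

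Cxcl15 (chromosome 5, 90794534 to 90803067, plus strand), a chemokine with no clear human counterpart, ran from 9.77 to 12.57 (median 10.83) in MEF-1 and from 7.60 to 11.40 (median 10.60) in MEF-2. The 2 highest MEF-1 lines, lines 6 and 7, lay above all MEF-2 lines, and the other 5 overlapped with them. The difference of 1.14 ± 0.61 (SE, n = 7 per set, adjusted p = 0.122) did not pass the limma test. Pf4 (chromosome 5, 90772435 to 90773383, plus strand), platelet factor 4, which binds heparin and hardly attracts neutrophils, ran from 2.82 to 3.69 (median 3.34) in MEF-1 and from 1.86 to 2.62 (median 2.05) in MEF-2. Here the sets did not overlap, and the difference was 1.10 ± 0.18 (SE, n = 7 per set, limma adjusted p = 0.000117).

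The interferon-responsive chemokine Cxcl10 (chromosome 5, 92346638 to 92348889, minus strand), which attracts activated T cells through Cxcr3, ran from 4.18 to 5.25 (median 4.84) in MEF-1 and from 2.51 to 3.35 (median 2.89) in MEF-2. All MEF-1 lines lay above all MEF-2 lines, and the difference was 1.85 ± 0.17 (SE, n = 7 per set, limma adjusted p = 5.73e-07). Cxcl10 overlaps Art3 on the other strand. Its neighbours Cxcl9 and Cxcl11, induced by the same signals, stayed at −2.29 to −2.25 and −1.49 to −1.10, and were not tested.

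**Figure D2:**
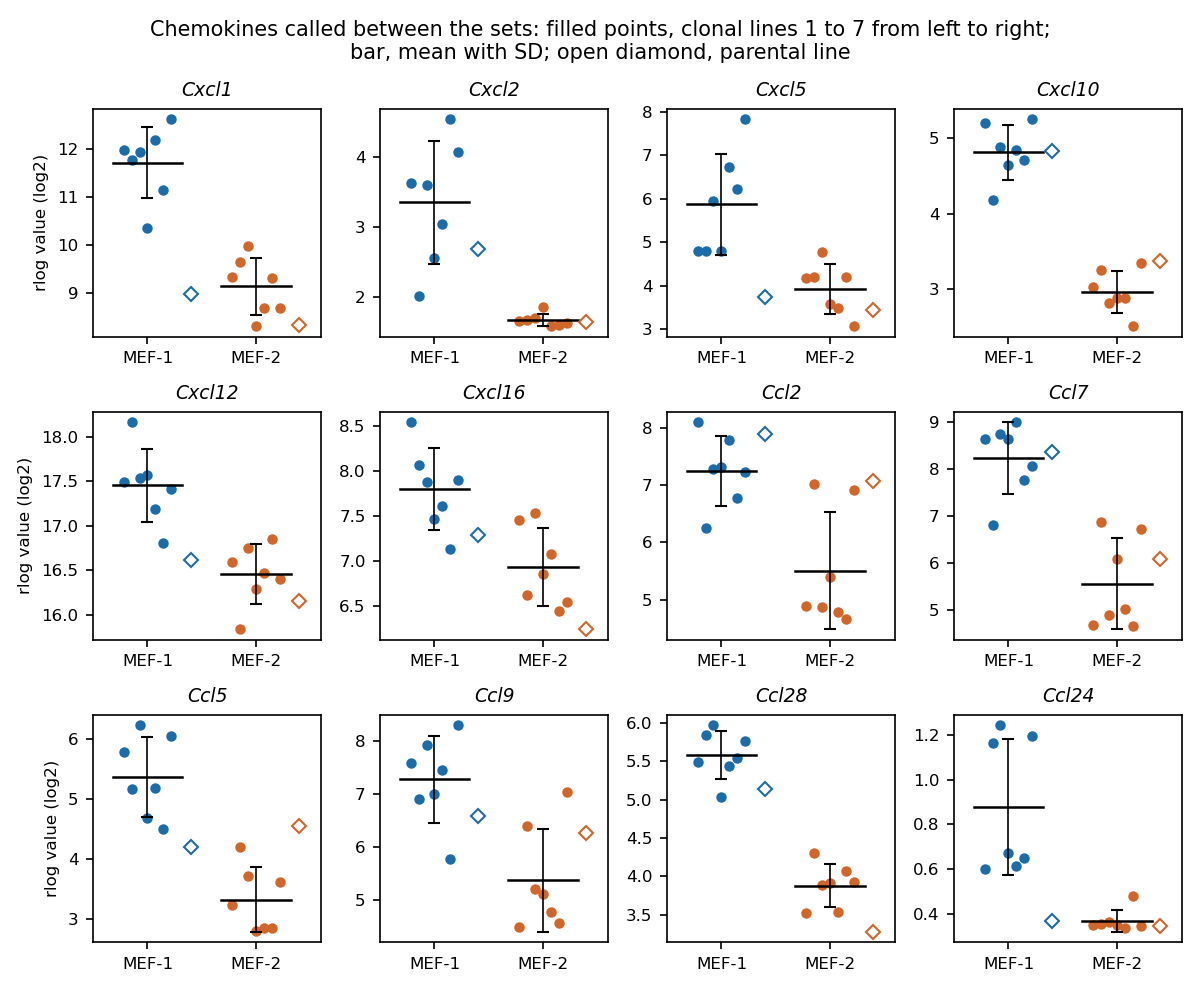
Values of 12 chemokines that were higher in MEF-1 (y axis, rlog value on the log2 scale, a separate scale per gene), with filled points for clonal lines 1 to 7, a bar and whiskers for their mean and SD, and an open diamond for the parental line. Cxcl1, Cxcl2, Cxcl5, Cxcl10, Ccl5, Ccl24 and Ccl28 show no overlap between the sets, and in Ccl2, Ccl7 and Ccl9 the MEF-2 lines 2 and 7 stand above the rest of their set.

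Of the monocyte-attracting CC chemokines, which act mainly on Ccr2, Ccl2 and Ccl7 are neighbours on chromosome 11, and both were higher in MEF-1. Ccl7 (ENSMUSG00000035373, chromosome 11, 82045712 to 82047525, plus strand) ran from 6.79 to 8.99 (median 8.64) in MEF-1 and from 4.65 to 6.87 (median 5.01) in MEF-2. Only MEF-1 line 2 lay below the highest MEF-2 line, and the difference of 2.68 ± 0.43 (SE, n = 7 per set, limma adjusted p = 9.77e-05) was the largest among the chemokines. Ccl2 (chromosome 11, 82035571 to 82037453, plus strand), MCP-1, ran from 6.24 to 8.10 (median 7.28) in MEF-1 and from 4.66 to 7.02 (median 4.89) in MEF-2. MEF-2 lines 2 and 7, at 7.02 and 6.92, lay within the range of MEF-1, while the other 5 MEF-2 lines did not exceed 5.40. The difference was 1.74 ± 0.41 (SE, n = 7 per set, limma adjusted p = 0.00245), and Ccl2 overlaps the gene model Gm17268 on the other strand.

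Further along chromosome 11, Ccl5 and Ccl9, both ligands of Ccr1, were also higher in MEF-1. Ccl5 (chromosome 11, 83525778 to 83530518, minus strand), RANTES, ran from 4.50 to 6.23 (median 5.17) in MEF-1 and from 2.81 to 4.21 (median 3.23) in MEF-2. The sets did not overlap, and the difference was 2.04 ± 0.30 (SE, n = 7 per set, limma adjusted p = 4.93e-05). Ccl9 (chromosome 11, 83572919 to 83578636, minus strand), a chemokine found in rodents, ran from 5.77 to 8.29 (median 7.46) in MEF-1 and from 4.50 to 7.04 (median 5.12) in MEF-2. MEF-2 lines 2 and 7 were again the highest of their set and overlapped with MEF-1, and the difference was 1.90 ± 0.44 (SE, n = 7 per set, limma adjusted p = 0.00201).

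**Figure D3:**
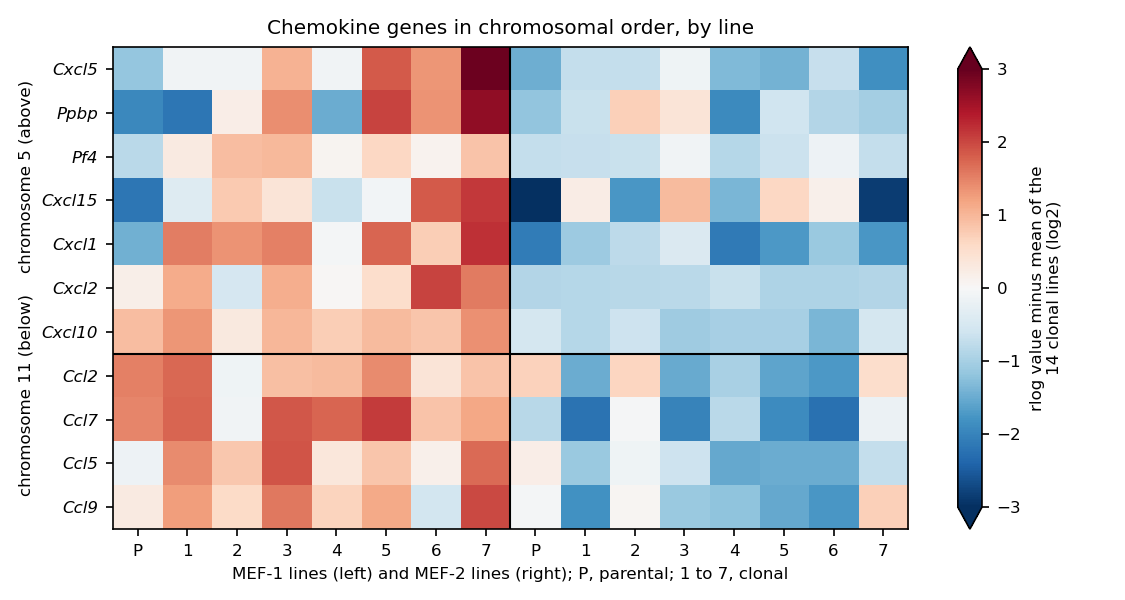
Heat map of 11 chemokine genes of chromosome 5 (above) and chromosome 11 (below) in chromosomal order, by line (colour, log2 deviation of the rlog value from the average over all 14 clonal lines, with the scale ending at −3 and 3; P, parental line). MEF-1 clonal line 7 has the deepest red for Cxcl5, Ppbp, Cxcl15 and Cxcl1, and MEF-2 clonal lines 2 and 7 stand out from their set in Ccl2, Ccl7 and Ccl9.

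Among the chemokines that act in resting tissues, Cxcl12 (chromosome 6, 117168535 to 117181367, plus strand) ran from 16.81 to 18.16 (median 17.49) in MEF-1 and from 15.84 to 16.85 (median 16.47) in MEF-2. MEF-1 line 6 fell just below the highest MEF-2 line, and the difference was 1.00 ± 0.19 (SE, n = 7 per set, limma adjusted p = 0.000405). Cxcl16 (chromosome 11, 70453983 to 70459984, minus strand), a membrane-bound ligand of Cxcr6 that also takes up oxidised lipoprotein, ran from 7.14 to 8.54 (median 7.88) in MEF-1 and from 6.44 to 7.53 (median 6.85) in MEF-2. With 5 MEF-1 lines above all MEF-2 lines, the difference was 0.87 ± 0.23 (SE, n = 7 per set, limma adjusted p = 0.00453), and the gene overlaps Zmynd15 on the other strand.

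Ccl28 (chromosome 13, 119623819 to 119654359, plus strand), a chemokine of mucosal surfaces that acts on Ccr10 and Ccr3, ran from 5.03 to 5.98 (median 5.54) in MEF-1 and from 3.53 to 4.30 (median 3.91) in MEF-2. The sets were well apart, with a difference of 1.71 ± 0.16 (SE, n = 7 per set, limma adjusted p = 6.74e-07). Cxcl17 (chromosome 7, 25400053 to 25412886, minus strand), another mucosal chemokine, ran from 1.99 to 3.41 (median 2.37) in MEF-1 and from 1.47 to 1.97 (median 1.75) in MEF-2, and the difference was 0.95 ± 0.22 (SE, n = 7 per set, limma adjusted p = 0.00194). The gap between the sets was small, as MEF-1 line 4 lay only just above the highest MEF-2 line, and 3 MEF-2 lines were within 0.1 of the lowest value of the gene.

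Ccl24 (chromosome 5, 135569937 to 135573049, minus strand), which attracts eosinophils through Ccr3, was low throughout, from 0.60 to 1.25 (median 0.67) in MEF-1 and from 0.33 to 0.48 (median 0.35) in MEF-2. As 6 MEF-2 lines lay within 0.1 of the lowest value, its difference of 0.51 ± 0.12 (SE, n = 7 per set, limma adjusted p = 0.00198) compares a low level with one at which no reads may be present. Ccl25 (chromosome 8, 4325210 to 4360020, plus strand), the ligand of Ccr9, ran from 9.11 to 9.44 (median 9.35) in MEF-1 and from 8.93 to 9.21 (median 9.12) in MEF-2. The sets overlapped, and the difference of 0.21 ± 0.08 (SE, n = 7 per set, limma adjusted p = 0.0404) was lost when any one of 8 lines was left out, with adjusted p up to 0.0847. It overlaps Elavl1 on the other strand.

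The remaining 4 genes that did not pass the limma test were Cx3cl1, Ccl17, Ccl20 and Cxcl14. Cx3cl1 (chromosome 8, 94772009 to 94782427, plus strand) ran from 11.15 to 12.92 (median 11.83) in MEF-1 and from 11.73 to 12.37 (median 12.09) in MEF-2, so that the MEF-2 lines lay inside the range of MEF-1 (difference −0.15 ± 0.21, SE, adjusted p = 0.557). Its neighbour Ccl17, which attracts T cells through Ccr4, had a difference of −0.64 ± 0.29 (SE, adjusted p = 0.0743), which passed the limma test when MEF-2 line 1 (−0.76) or line 3 (−0.83) was left out. Ccl20, the ligand of Ccr6, averaged 2.12 in both sets, with MEF-2 line 7 highest at 3.58. The difference of Cxcl14, a chemokine of skin and other epithelia, was 0.75 ± 0.36 (SE, adjusted p = 0.093), and 0.46 without MEF-1 line 1.

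By chromosome, 6 of 9 tested chemokines of chromosome 5 and 5 of 5 of chromosome 11 were higher in MEF-1, against 33.8% and 26.5% of all genes tested on these chromosomes. Differences between chromosomes were not tested. The median deviation of all genes of chromosome 5 was 0.24 in MEF-1 clonal line 7 and between −0.07 and 0.03 in the other 13 clonal lines. That line was the highest of its set for 8 of the 22 tested chemokines, among them Cxcl1, Cxcl3, Cxcl5, Cxcl10, Cxcl15 and Ppbp of chromosome 5. With the median of its own chromosome subtracted from each value, 15 chemokines were again higher in MEF-1 and 0 lower. Of all 15285 genes tested, 4354 were higher and 4382 lower in that setting.

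Within a set, many chemokines varied between clones more than most genes of their expression group. The SD over 7 clonal lines was above the 90th percentile of all genes of the same expression group for 9 of the 22 chemokines in MEF-1 and for 9 in MEF-2, and above the median of the group for 19 and 15. No test is attached to these counts, and as each clonal line had 1 library, spread between clones and between libraries cannot be told apart. The median SD was 0.58 in MEF-1 and 0.39 in MEF-2. Ppbp covered a range of 4.82 in MEF-1 and was the only chemokine with a range of 4 or more, found for 0.569% of all genes tested in MEF-1 and for 0.366% in MEF-2. Cxcl15 was at the 99.7th percentile of its group for SD in MEF-1 and at the 99.9th in MEF-2. Ccl25 was at the 11.5th and 13.0th percentiles, while Cxcl10 (55.6th and 50.6th) and Ccl28 (48.4th and 49.5th) varied like the middle of their groups. In MEF-2, Ccl24, Cxcl2, Cxcl14 and Cxcl3 were lower still than Ccl25 (2.91 to 10.9). However, 4 to 6 of the 7 MEF-2 lines lay within 0.1 of the lowest value of these genes. Their small SD may therefore come from lines without reads.

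Pairs of chemokines were compared over the 7 clonal lines of each set, in 22 relations, 8 of them from pairs picked after their values had been seen. The p-values come from exact permutation tests, two-sided, and were adjusted over all 22 and also over the other 14 alone. Ccl2 and Ccl7 moved together in both sets, with Pearson's r = 0.882 in MEF-1 and 0.950 in MEF-2 (exact permutation, adjusted p = 0.0466 for both over 22 relations, and 0.0444 and 0.0389 over 14, n = 7 each). Spearman's rho was 0.750 (exact permutation p = 0.0663) and 0.857 (exact permutation p = 0.0238), and none of the 22 adjusted p-values of rho was under 0.05, the 2 of this pair being 0.243. Leaving out the 2 lines farthest from the median of Ccl2 kept r at 0.885 and 0.935.

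**Figure D4:**
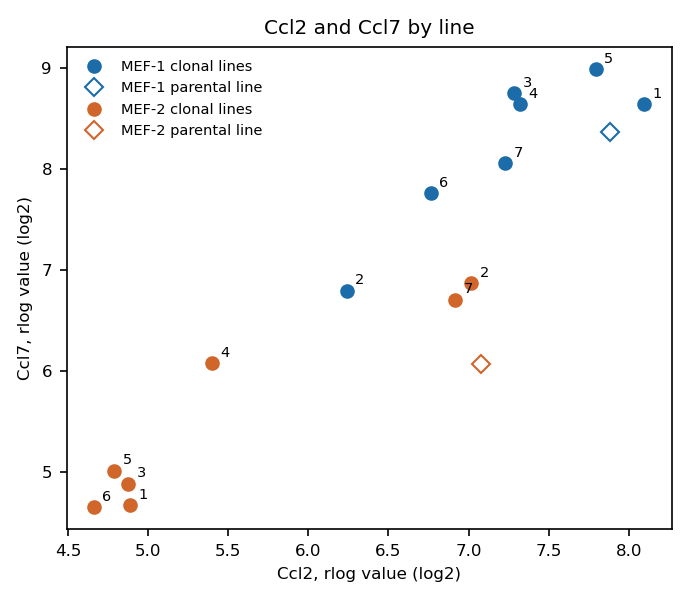
Ccl2 (x axis) against Ccl7 (y axis), rlog values on the log2 scale, with filled points for clonal lines, numbered within each set, and open diamonds for the parental lines. MEF-2 lines 2 and 7 lie beside MEF-1 line 2, away from MEF-2 lines 1, 3, 5 and 6, and within each set lines with more Ccl2 tended to have more Ccl7.

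Among the CXC genes, Cxcl1 and Cxcl5 had r = 0.889 in MEF-2 (rho = 0.786, exact permutation, adjusted p = 0.0466 for r and 0.243 for rho over 22 relations), but over 14 relations the adjusted p for r was 0.0537 and did not pass. In MEF-1 they had r = 0.599 (rho = 0.464, exact permutation, adjusted p = 0.293 for r). Leaving out the 2 lines with Cxcl1 values farthest from its median, r was 0.916 in MEF-2 and 0.919 in MEF-1. Whether the relation differs between the sets was not tested. Ccl2 and Cxcl1, on different chromosomes, had r = 0.211 in MEF-1 and −0.075 in MEF-2 (rho = 0.286 and −0.071, exact permutation, adjusted p = 0.742 and 0.847 for r).

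The 4 pairs that were picked after their values had been seen are given as a description, with no test. Among them, Ppbp and Cxcl5 had r = 0.886 and rho = 0.929 in MEF-1, and r was 0.988 without lines 1 and 4. In MEF-2, Ccl9 had r = 0.948 and rho = 0.679 with Ccl2 and r = 0.891 and rho = 0.821 with Ccl7, but without lines 2 and 7 r was 0.573 and 0.614, so that both relations rest on those lines. Over all genes tested, MEF-2 lines 2 and 7 were also the closest pair of libraries (median absolute difference 0.0996). The remaining relations of the 14, among them Cxcl10 with Ccl5 and Cxcl12 with Cxcl14, had exact permutation p-values for r of 0.3 to 0.847 when adjusted over the 14.

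A parental line has 1 library, and its comparison with its clonal lines is given without a test. The MEF-1 parental line lay below all 7 of its clonal lines for 8 of the 22 chemokines, against 20.8% of all genes tested, and above all of them for 3, against 20.2%. For MEF-2 the counts were 3 below (18.5%) and 7 above (15.8%). Cxcl1 was at 8.97 in the MEF-1 parental line, at −2.74 relative to the mean of its clonal lines and within the range of the MEF-2 clonal lines, and at 8.34 in the MEF-2 parental line. In Cxcl1 the parental lines were thus closer to each other than the means of the clonal lines. This also held for other called genes, which were called because the means of their clonal lines differed. MEF-1 and MEF-2 parental values were 3.74 and 3.44 for Cxcl5, 1.92 and 2.02 for Pf4, and 0.37 and 0.35 for Ccl24. Parental values lay farther apart for Cxcl10 (4.82 and 3.37), Ccl7 (8.37 and 6.07) and Ccl28 (5.13 and 3.27). In Cxcl10 and Ccl7 the means of the clonal lines still differed more, by 1.85 and 2.68. In Ccl28 and Cxcl16 (parental values 7.29 and 6.24) they differed less than the parental lines, by 1.71 and 0.87. Over all genes tested, the parental lines had a median absolute difference of 0.21, and the means of the clonal lines one of 0.30, so that closer parental lines were not particular to chemokines. From its own clonal lines, the MEF-1 parental line had 0.20 to 0.33 and the MEF-2 parental line 0.16 to 0.27. None of this was tested.

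Cxcl14 (chromosome 13, 56288643 to 56296551, minus strand) was at 4.63 and 4.76 in the parental lines of MEF-1 and MEF-2, above all 14 clonal lines. In the MEF-1 clones it was at 3.78 in line 1 and 3.30 in line 4 and at 1.26 to 1.73 in the other 5, and in the MEF-2 clones it ran from 1.19 to 1.48. As 2 of the MEF-1 and 5 of the MEF-2 clonal lines lay within 0.1 of the lowest value of the gene, those lines may hold no reads of Cxcl14. Ccl17 was higher in each parental line than in the clonal lines of the same set, at 3.79 in MEF-1, where the clonal lines ran from 2.38 to 3.27, and at 5.28 in MEF-2, where they ran from 2.24 to 4.58.

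Cxcl15 went the other way, at 8.29 in the parental line of MEF-1 and 7.34 in that of MEF-2, each below all 7 clonal lines of its own set and at −2.73 and −2.53 relative to the means of those lines. Ccl5 was at 4.20 in the parental line of MEF-1, below all of its clonal lines, and at 4.56 in the MEF-2 parental line, above all of its clonal lines. Ccl2 was at 7.88 and 7.08 in the parental lines, the latter just above all MEF-2 clonal lines and 1.57 above their mean.

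**Figure D5:**
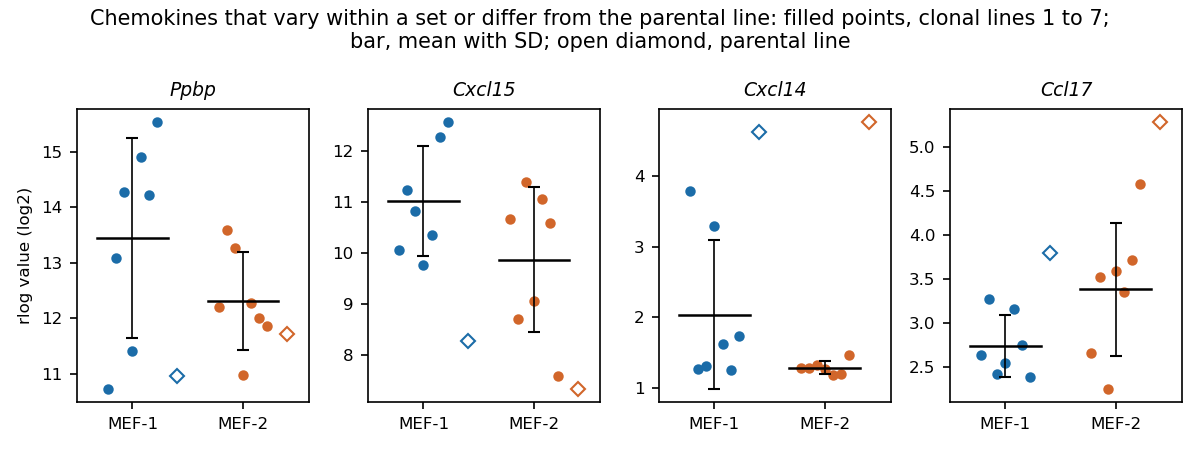
Values of Ppbp, Cxcl15, Cxcl14 and Ccl17 (y axis, rlog value on the log2 scale, a separate scale per gene), with filled points for clonal lines 1 to 7, a bar and whiskers for their mean and SD, and an open diamond for the parental line. Within each set, Cxcl14 and Ccl17 are highest in the parental line and Cxcl15 is lowest in it, and Ppbp spreads from 10.72 to 15.54 in the MEF-1 clonal lines.

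Of 22 chemokine receptors, 5 were listed at 0 in all lines (Cxcr3, Ccr1, Ccr6, Ccr8 and Ackr1), 9 averaged at or below 0, among them Cxcr1, Cxcr2 and Ccr2, and 8 were tested. None of the 8 was called by limma, against 56.1% of all genes tested, nor was any at an unadjusted p under 0.05 by limma or by the exact permutation test. The tested receptors other than Ackr3 averaged only from 0.36 (Cxcr5) to 4.35 (Cx3cr1), and differences at low levels are shrunken most. The highest was Ackr3, an atypical receptor that takes up Cxcl12 without signalling through G proteins, which averaged 12.07 and ran from 11.32 to 12.78 in MEF-1 and from 11.02 to 12.44 in MEF-2 (difference 0.45 ± 0.24, SE, adjusted p = 0.122). Cxcr4, the signalling receptor of Cxcl12, averaged 2.99 and had a difference of 0.18 ± 0.20 (SE, adjusted p = 0.456). Cxcr2, the receptor of Cxcl1, and Ccr2, the receptor of Ccl7, averaged −0.27 and −2.28.

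Among proteins that process chemokines, 2 of 5 tested passed, 1 in each direction, against 56.1% of all genes tested (28.6% higher and 27.5% lower). Adam17, a protease that sheds Cx3cl1 and Cxcl16 from the membrane, was lower in MEF-1 (11.83 to 11.99) than in MEF-2 (12.60 to 12.73), by −0.76 ± 0.04 (SE, n = 7 per set, limma adjusted p = 7.54e-10). It lies on chromosome 12, and with the chromosome median subtracted its difference was −0.17 (limma adjusted p = 0.000621). Mmp9, a gelatinase that trims CXC chemokines, differed by 0.43 ± 0.15 (SE, adjusted p = 0.0238), which was lost with the chromosome median subtracted (0.35, adjusted p = 0.0763) and with the parental lines added (0.30, adjusted p = 0.12). Mmp2, the highest of the list at an average of 16.46, had a difference of −0.22 ± 0.11 (SE, adjusted p = 0.0978).

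Of 26 tested genes of NF-kB and its cytokine targets, 16 passed, 11 higher and 5 lower in MEF-1 (56.1%, 28.6% and 27.5% of all genes tested), with a median difference of 0.33 over the tested genes. Lcn2, a siderophore-binding protein of the acute phase, was higher by 3.41 ± 0.40, the alarmin Il33 by 2.03 ± 0.38 and the adhesion molecule Vcam1 by 1.34 ± 0.34 (SE, n = 7 per set, limma adjusted p = 4.97e-06, 0.000356 and 0.00415). In the other direction, the cytokine Lif differed by −1.33 ± 0.41, the feedback inhibitor Tnfaip3 by −0.86 ± 0.20 and Csf3 by −0.84 ± 0.32 (limma adjusted p = 0.0121, 0.00202 and 0.038), the last of which missed the threshold under 4 other settings. Csf1, the highest of the list at an average of 14.16, was higher in MEF-1 by 0.36 ± 0.09 (limma adjusted p = 0.00256). With chromosome medians subtracted, Rela and Nfkb2 on chromosome 19 and Tnfaip2 on chromosome 12 no longer passed, and Nfkbia on chromosome 12 did. The inducers Il1a and Il1b, named for their role and not by size, were listed at 0 in all lines, and Tnf averaged −1.56.

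Of 19 tested interferon-response genes, 8 passed, 7 higher and 1 lower in MEF-1 (again against 56.1%, 28.6% and 27.5% of all genes), with a median difference of 0.21. Ifit1, which binds viral RNA, was higher by 1.86 ± 0.32, the antiviral GTPase Mx1 by 1.33 ± 0.20 and Ifit3 by 1.15 ± 0.33 (SE, n = 7 per set, limma adjusted p = 0.00018, 5.23e-05 and 0.00851). Ifit1 and Ifit3 lie on chromosome 19, and with the chromosome median subtracted Ifit3 was at a limma adjusted p = 0.0617. Rsad2 on chromosome 12 went the other way, from 0.93 (limma adjusted p = 0.000931) to 1.52 (limma adjusted p = 1.54e-05). The guanylate-binding protein Gbp2 was lower by −1.20 ± 0.32 (limma adjusted p = 0.00481). Ifnar1, a subunit of the type I interferon receptor and the highest of the list at 13.10, had a difference of 0.03 ± 0.05 (adjusted p = 0.614). Whether these genes bear on the levels of the chemokines was not tested.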

How the data were processed

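Total RNA of 16 MEF lines was depleted of rRNA and sequenced in paired-end, strand-specific libraries. The authors trimmed reads with Trim Galore 0.6.0, quantified transcripts with Salmon 1.5.2 on mm10 (Ensembl release 102) and deposited log2 values from the rlog transformation of DESeq2 1.24.0, 1 per gene and line. The summing of transcripts to genes, and whether rlog was run blind, are not given in the sources used here. The values hold no counts, so that depth is unknown and counting intervals cannot be given, and they were used without a pseudocount.

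Genes were matched to GENCODE mouse release 21 (mm10, 1-based coordinates). Protein-coding genes with an average above 0 (15285) were fitted with limma 3.58.1 in R 4.3.3 (trended variance prior, Benjamini-Hochberg adjustment, threshold 0.05), 7 MEF-1 against 7 MEF-2 clonal lines, without covariates, and each difference is MEF-1 minus MEF-2. Expression groups are bounded by percentiles of the average over all lines. A line was taken to lie at the lowest value of a gene within 0.1, and this tolerance was set after the data had been seen. The summed level of a list is the log2 of the sum of its genes' values on the linear scale. Length is that of the longest coding transcript. Of the 34 chemokines, 21 share no 31-base word with another gene, 8 share under 1% and 5 share 1% or more. Spread, parental lines and pairs are described in the report, with Python 3.11.15 (pandas 2.3.3, numpy 2.4.6). Scripts were tested on simulated data.

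Groups were taken from the sample labels. A clone number shared by a MEF-1 and a MEF-2 line is only a name. No 2 libraries were identical. The closest pair, MEF-2 clonal lines 2 and 7, had a median absolute difference of 0.0996. Named were all 34 chemokines, with values for those called, the 5 highest and those with a range of 4 or more, and, from each related list, the highest gene and, in each direction, the 3 called genes that differed most. Others, such as Cxcl3, Cxcl14, Ccl17 and Ccl20, Cxcr4, the unexpressed receptors and genes that changed under an alternative, were added after the values were seen. The chemokines and gene lists were chosen with earlier results of these data known. Alternatives were other filters on low values, centring, chromosome medians, another variance prior, a block for clone number, parental lines added, an exact permutation test and leaving out each line. Methylation data were not used here.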

Additional observations from a re-analysis of the deposited data

Results flagged for a closer look

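In 44 sets of 7 clonal values (22 chemokines in MEF-1 and MEF-2), 3 had 1 line farther from the others than Dixon's 95% limit for 7 values allows, and chance alone gives about 1 in 20, or 2.2 of 44. Cxcl3 stood at 1.573 in MEF-1 clonal line 7, with the next line at 0.325. Cxcl2 stood at 1.846 in MEF-2 clonal line 4, with the next line at 1.694, and Ccl24 at 0.478 in MEF-2 clonal line 6, with the next line at 0.362, both sets in which most lines lay near the lowest value of the gene.

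Ccl5 was flagged because its clonal lines moved in opposite directions from their parental lines. All 7 MEF-1 clonal lines were above the MEF-1 parental line, by 1.163 on average, and all 7 MEF-2 clonal lines were below the MEF-2 parental line, with an average difference of −1.229. With 1 library per parental line, no test was made of this contrast between MEF-1 and MEF-2.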

How the results depend on the processing

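Of the 22 tested chemokines, 19 kept their side of the threshold under all alternatives in which they were tested, and no called difference changed sign. Ccl20, not called, had a difference of 0.00 that ran from −0.095 to 0.243 and changed sign. With each clonal line left out in turn, 14 to 16 chemokines were called, against 8026 to 8673 of all 15285 genes tested. The median SD of the chemokines then ran from 0.537 to 0.617 in MEF-1 and from 0.36 to 0.421 in MEF-2. The calls that moved were those of Ccl25, Ppbp and Ccl17. Ccl25, at 0.182 to 0.243, lost its call under 10 of 22 alternatives, among them the parental lines added (adjusted p = 0.0517). With an average above 5 required, 7 of the 10 chemokines still tested were called, against 7372 of 12391 genes, and the count fell because fewer were tested. With all genes not at 0 in every line, coding or not, 16 of 30 chemokines were called, against 9872 of 30853 genes. Ccl6 was the one added (0.21, limma adjusted p = 0.0194), and 1 receptor, Ccr4, was lower in MEF-1 (−0.30, limma adjusted p = 0.0358). The processing genes called were 1 instead of 2 with an average above 5 (Mmp9 no longer tested), with chromosome medians subtracted and with the parental lines added, the cause of the last 2 not tested.

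Clone numbers do not pair the lines. The correlation of the deviations of same-numbered clones ran from −0.13 to 0.20, and 1 of 7 correlated best with its own number. With the replicate block, 14 chemokines were called, without Ccl25, and 0 receptors, 15 NF-kB and cytokine genes, 8 interferon-response genes and 2 processing genes. Over all genes, 8226 of 15285 were called with the block. Depth is unknown, so that low values (Cxcl2, Cxcl3, Cxcl14, Cxcl17 and Ccl24) are the least certain.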
